A study of Homo sapiens with 6 samples.

Results

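The nuclear pore is the gated channel through which proteins and RNA pass between cytoplasm and nucleus. It is built of nucleoporins in layered rings: a Y-shaped scaffold complex on either face, an inner ring, a membrane ring that anchors it, a central channel of phenylalanine-glycine repeats, filaments towards the cytoplasm and a basket towards the nucleus. Cargo crosses bound to transport receptors. Importin alpha adaptors read a nuclear localization signal and join importin beta, transportins carry other import signals, and exportins bind cargo together with the GTPase Ran. In monocytes, transcription factors such as NF-kappaB reach the nucleus on these receptors.

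The genes described here were chosen by name. They are those whose symbol begins with NUP, IPO or XPO and a digit, or with KPNA, KPNB or TNPO, and that had a probe set annotated to 1 gene only. The rule found 46 genes among the 18417 tested, 23 nucleoporins and their relatives and 23 transport receptors. Only KPNA2 had more than 1 such probe set. NUP62, a central channel nucleoporin, was carried only by a probe set annotated to a further gene as well and was not tested. The samples were 6 Affymetrix arrays of THP-1, a human line from a monocytic leukaemia. In 3 of them the cells were unstimulated, and in 3 they had received 200 nM PMA (a phorbol ester, used to push these cells towards macrophages) for 3 days and then rested for 3 days without it. All came from 1 leukaemia line. The labels do not say whether replicates were separate cultures, and the spread behind each p-value may therefore be technical.

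Values are on the log2 scale, and the arrays' medians ran from 6.10 to 6.25 and their lower quartiles from 4.46 to 4.57. Every PMA median (6.10 to 6.17) lay below every unstimulated median (6.20 to 6.25). The lower quartiles split in the same way, while the upper quartiles overlapped. Of 12 listed monocyte and macrophage markers, 9 were measured, and all 9 lay above every array's median on every array, whereas 0 of 6 T cell markers did. By the calls set out below, 3 of the 9 rose (CSF1R, CD14, ITGAM) and 2 fell (CEBPA, LYZ), against 26.4% of all genes called. CD14 was at 7.51 on unstimulated array 1 and 9.67 and 9.65 on the others. CSF1R, ITGAM, PTPRC and CD4 were also lowest there among unstimulated arrays, while SPI1, CEBPA, LYZ and CD68 were highest. The mean over the T cell list was 4.83 to 4.95 on unstimulated arrays and 4.87 to 5.18 on PMA arrays. On the remaining lists, 2 of 4 B cell, 1 of 3 erythroid, 1 of 6 fibroblast and 1 of 5 epithelial markers lay above every array's median. Among the genes described here, 41 of 46 lay above every array's median on every array. NUP62CL was below every array's lower quartile throughout, and NUP210L (4.03 to 4.48), KPNA7, NUP210P1 and KPNA5 were the others with an array at or under the medians. Unstimulated array 1 was the highest unstimulated array for 36 of the 46 genes (78.3%). That held for 39.4% of all genes and 49.6% of the 5565 genes with a mean above 8. The median of the 46 lay 0.25 above the mean of the other unstimulated arrays there, against 0.01 over all genes and 0.06 over those brighter genes. PMA array 3 was the lowest PMA array for 32 of the 46 (69.6%), against 36.0% of all genes and 43.7% of the brighter ones.

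In PMA-differentiated cells, 8 of the 46 genes fell and 6 rose. The falls were NUP210, NUP37, NUP93, NUP88, NUP133, NUP160, NUP50 and TNPO3, of which all but TNPO3 encode parts of the pore. The rises were KPNA3, IPO7, KPNA1, KPNA5, NUP58 and IPO8, of which all but NUP58 encode receptors. NUP210 was the single one of them to change at least 2-fold (2.01-fold), against 8.37% of all genes that passed at that size. The other changes lay between 1.24-fold and 1.72-fold. Calls are from limma with Benjamini-Hochberg adjustment over all 18417 genes at an adjusted p of 0.05, under which 26.4% of all genes were called, 13.2% higher and 13.2% lower. The 14 called are 30.4% of the 46, a share near that background. The background itself varied with brightness. With the dimmest 25% of genes left out, 33.8% of the rest were called, and with genes below the median left out, 39.5%. Those fits kept 14 and 13 of the 14 calls. An unadjusted p under 0.05 was reached by 20 of the 46, against 36.6% of all genes. The groups did not overlap for 22 of the 46 (47.8%, with 9 higher and 13 lower), against 41.2% of all genes (19.2% higher, 22.0% lower). The arrays measure RNA in bulk, so fewer cells with a transcript and less of it per cell cannot be told apart.

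The counts by role were as follows. Of the 23 nucleoporins and relatives, 1 rose and 7 fell, with a median log2 fold change of −0.23. Of the 23 receptors, 5 rose and 1 fell, with a median of 0.11, against −0.03 over all genes. The difference between these medians is a description and was not tested. The 17 proliferation markers moved down beside them: 13 fell and none rose, with a list mean of 9.74 to 10.03 on unstimulated arrays and 9.17 to 9.27 on PMA arrays, and their part in the nucleoporin falls was not tested. Without unstimulated array 1, 1 nucleoporin rose and 7 fell, and 7 receptors rose and none fell. With PMA array 3 left out as well, an alternative added after the data were seen, 3 nucleoporins rose and 6 fell, and 11 receptors rose and none fell. Most of the 46 genes were at their group's highest on unstimulated array 1 and at its lowest on PMA array 3. Leaving those arrays out thus moves most changes upward by construction, and the added rises are no separate evidence. Of all genes, 25.9% were called without unstimulated array 1 and 34.3% without both arrays, against 26.4% with every array in. With each array centred on its median, 2 nucleoporins rose and 4 fell, 5 receptors rose and none fell, and 61.8% of all called genes were higher, against 50.1% here.

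**Figure D1:**
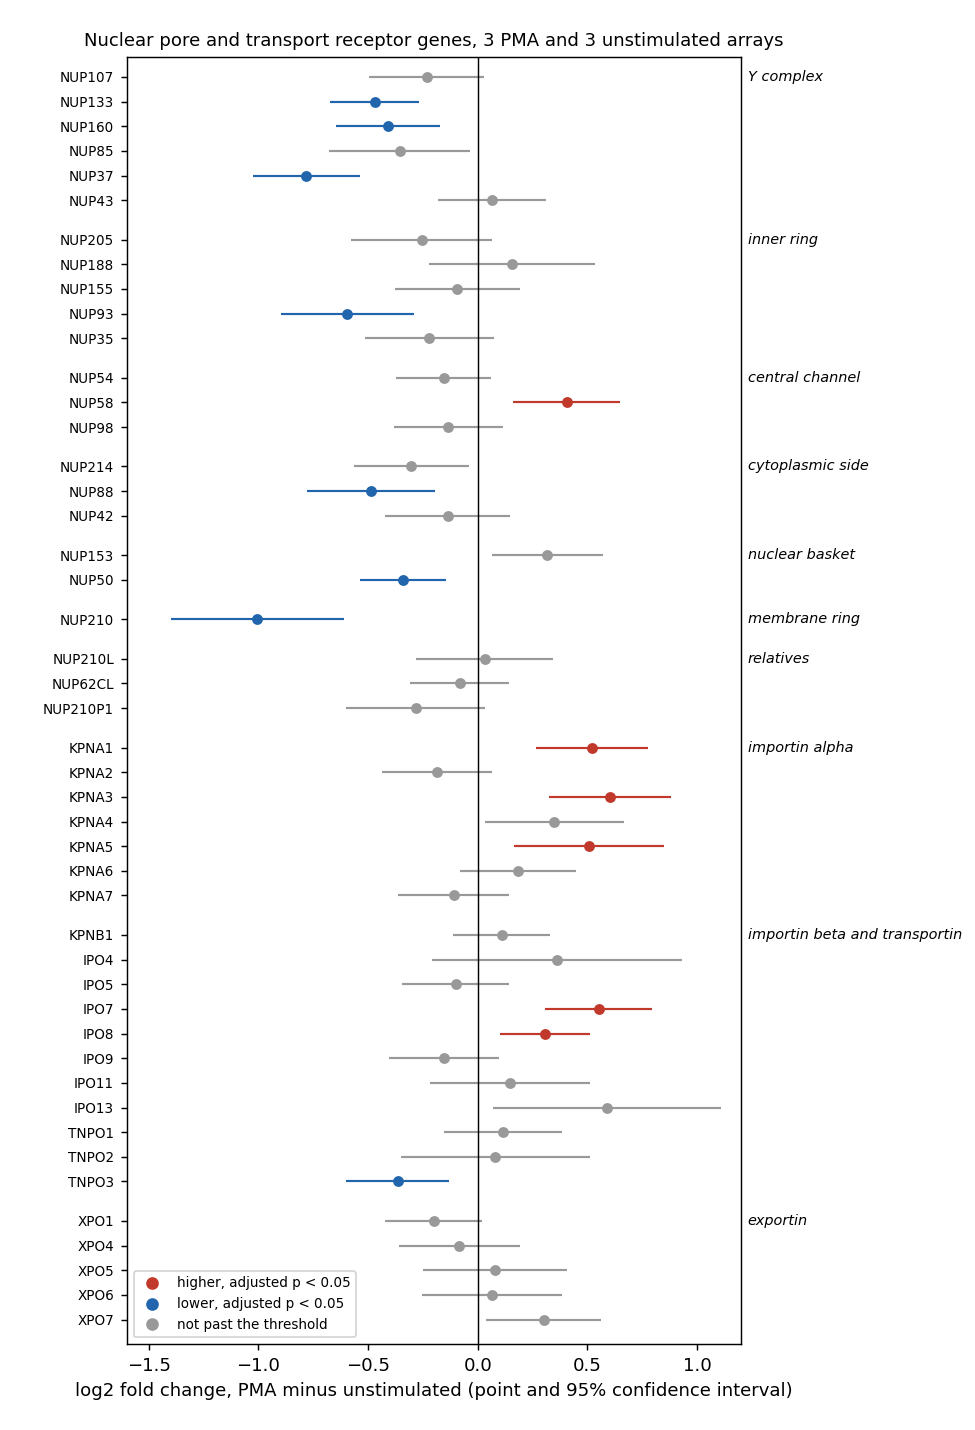
Log2 fold change (PMA minus unstimulated, horizontal axis) of each of the 46 genes, grouped by role, with its 95% confidence interval from the limma fit on 3 arrays per group; red and blue mark genes past an adjusted p of 0.05 and grey those not past it. Blue points lie almost all in the pore groups at the top, down to −1.01 for NUP210, and red points mainly among importins, up to 0.60 for KPNA3.

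In what follows, array values are log2 values in the order of replicates 1, 2 and 3, and a change is the log2 difference of PMA from unstimulated, given ± the standard error from limma (n = 3 arrays per group). Brightness differs between probe sets, so values are compared between arrays and never between genes.

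The Y complex is the outer scaffold of the pore and also sits at kinetochores in mitosis. Of its 6 measured members chosen by name, 3 fell and none rose. SEC13 and SEH1L, further subunits outside the naming rule and named here after their values were seen, did not pass (0.32 ± 0.13, adjusted p = 0.112, and −0.07 ± 0.17, adjusted p = 0.826). NUP37, a small peripheral subunit, was at 8.89, 8.59 and 8.80 on unstimulated arrays and at 7.94, 8.03 and 7.96 with PMA. The PMA arrays lay close together and well under every unstimulated array, a fall of 0.78 ± 0.10 on the log2 scale (adjusted p = 0.00129), or 1.72-fold. NUP133, at the tip of the Y's stem, went from 9.45, 9.31 and 9.41 to 8.94, 8.87 and 8.95. It fell by 0.47 ± 0.09 (adjusted p = 0.00583), again with no overlap and with similar spread in both groups. NUP160, in one arm of the Y, went from 9.46, 9.20 and 9.29 to 8.95, 8.97 and 8.81, a fall of 0.41 ± 0.10 (adjusted p = 0.0215). That call was lost without unstimulated array 3, PMA array 1 or PMA array 3 (adjusted p 0.0527 to 0.0615), without unstimulated array 1 and PMA array 3 together (0.0667) and with arrays centred on their medians (0.0755).

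The other members chosen by name did not pass either. NUP85 was at 9.43, 8.95 and 8.997 on unstimulated arrays and 8.82, 8.78 and 8.71 with PMA. Its groups did not overlap, but unstimulated array 1 stood above the others, and the difference of −0.35 ± 0.14 missed the threshold (adjusted p = 0.103). NUP107, in the stem, differed by −0.23 ± 0.11 (adjusted p = 0.186) with overlapping groups. NUP43, like NUP37 a propeller-shaped peripheral subunit, differed by 0.06 with a 95% confidence interval of −0.18 to 0.31, an interval that leaves out the size of the fall seen in NUP37.

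The NUP37 gene shares its start region with PARPBP (PARP1 binding protein). PARPBP is transcribed the other way from a RefSeq start 69 bases from that of NUP37, and it was singled out after its values were seen. The 68 bases between the starts are shown because they lie upstream of both genes (GRCh38.p14, minus strand, chr12:102120115-102120182, 5′ to 3′ towards NUP37). Capitals mark a CCAAT box and an ETS core (CCGGAAG), 39 and 14 bases before the NUP37 start at their leftmost base.
NUP37: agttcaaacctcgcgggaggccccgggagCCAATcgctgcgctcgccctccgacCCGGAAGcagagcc
PARPBP was at 7.54, 7.28 and 7.63 on unstimulated arrays and 6.40, 6.67 and 6.52 with PMA. It fell by 0.95 ± 0.12 (adjusted p = 0.00113), beside the fall of NUP37. Of the 39 genes with a RefSeq promoter window, 6 had a measured neighbour starting within 1000 bases in the opposite direction, and the others went as follows. RPAIN, 520 bases from NUP88, differed by −0.09 ± 0.13 (adjusted p = 0.688), although NUP88 fell. DOLK, 96 bases from NUP188, rose by 0.41 ± 0.09 (adjusted p = 0.0107), while NUP188 itself did not pass. POLH, 147 bases from XPO5, fell by 0.34 ± 0.10 (adjusted p = 0.0406), while XPO5 did not pass. Neither PGAP2 beside NUP98 (adjusted p = 0.578) nor DNAAF6 beside NUP62CL (adjusted p = 0.807) passed, nor did those 2 nucleoporin genes. NUP37 and PARPBP were the single pair of the 6 in which both genes passed.

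The inner ring ties the scaffold to the membrane and to the central channel. Of 5 measured members, NUP93 fell and the other 4 did not pass. NUP93, which recruits the channel nucleoporins, was at 9.82, 9.41 and 9.49 on unstimulated arrays and at 9.05, 9.05 and 8.84 with PMA. All PMA arrays lay below all unstimulated arrays, a fall of 0.59 ± 0.13 (adjusted p = 0.0125), or 1.51-fold. The large scaffold proteins NUP205 and NUP188 went opposite ways without passing. NUP205 differed by −0.26 ± 0.14 (adjusted p = 0.235) and NUP188 by 0.16 ± 0.16 (adjusted p = 0.561). Without unstimulated array 1 and PMA array 3 together, NUP188 passed at 0.42 (adjusted p = 0.0147). That was the only 1 of 19 alternatives under which it passed. The alternative was added after the data were seen and moves most changes upward by construction. NUP155, a membrane-binding scaffold protein, differed by −0.09 with a 95% interval of −0.38 to 0.19. NUP35, another membrane-binding member, differed by −0.22 ± 0.13 (adjusted p = 0.262).

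In the central channel, NUP58 rose while its partner NUP54 and NUP98 did not pass. NUP58, which forms the channel complex with NUP54 and NUP62, was at 8.68, 8.70 and 8.83 on unstimulated arrays and 9.12, 9.30 and 9.01 with PMA. Of the 23 nucleoporins and relatives chosen by name it was the sole one to rise, by 0.41 ± 0.11 (adjusted p = 0.0251). The call was lost without unstimulated array 1 or 2 or PMA array 1 or 2 (adjusted p 0.0575 to 0.0861) and with a replicate block (adjusted p = 0.0507). NUP54 was at 8.87, 8.69 and 8.84 against 8.56, 8.69 and 8.68. Unstimulated array 2 and PMA array 2 nearly touched, and the difference of −0.16 ± 0.09 did not pass (adjusted p = 0.284). NUP98, whose gene also encodes the Y complex protein NUP96, differed by −0.13 ± 0.11 (adjusted p = 0.431).

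On the cytoplasmic side, NUP88 fell among 3 genes chosen by name, while RANBP2, the large filament nucleoporin outside the naming rule, rose (0.74 ± 0.11, adjusted p = 0.00254). NUP88, a platform protein held by NUP214, went from 9.69, 9.26 and 9.37 to 9.03, 8.93 and 8.91. Every PMA array was lower, by 0.48 ± 0.13 on average (adjusted p = 0.0244). The call was lost without unstimulated array 3, PMA array 1 or PMA array 2 (adjusted p 0.0565 to 0.0731) and with arrays centred on their medians (0.0699). NUP214, which docks export complexes, was at 9.82, 9.53 and 9.48 against 9.36, 9.31 and 9.26. Its groups did not overlap, yet the difference of −0.30 ± 0.11 missed the threshold (adjusted p = 0.0903). NUP42, a partner of the mRNA export factor GLE1, differed by −0.14 ± 0.12 (adjusted p = 0.492).

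In the nuclear basket and membrane ring, NUP50 and NUP210 fell. NUP50, a mobile basket protein that helps importin alpha release its cargo, was at 7.10, 7.14 and 7.14 on unstimulated arrays and 6.78, 6.72 and 6.85 with PMA. Its groups were tight and apart, with a fall of 0.34 ± 0.08 (adjusted p = 0.0208). The call was lost without unstimulated array 2 or 3 or PMA array 1 or 2 (adjusted p 0.0626 to 0.0795) and with arrays centred on their medians (0.0664). NUP153, the basket anchor, was at 9.27, 9.01 and 9.15 against 9.53, 9.53 and 9.32. All PMA arrays lay above all unstimulated arrays, but the difference of 0.32 ± 0.11 did not pass (adjusted p = 0.0684), and it passed without unstimulated array 1 (0.38, adjusted p = 0.0460) and without PMA array 3 (0.39, adjusted p = 0.0407), with arrays centred, with cyclic loess and with array quality weights.

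NUP210 changed most of the 46 genes. It encodes a large glycoprotein of the membrane ring that is abundant in some cell types and scarce in others. It was at 11.04, 10.62 and 10.66 on unstimulated arrays and at 9.87, 9.45 and 9.98 with PMA. Every unstimulated array lay well above every PMA array, and the fall was 1.01 ± 0.17 (adjusted p = 0.00383). The 250 bases before its start are shown because this gene changed most (GRCh38.p14, minus strand, chr3:13420323-13420572). Capitals mark a GC box (GGGCGG on the opposite strand), 17 bases before the start.
NUP210: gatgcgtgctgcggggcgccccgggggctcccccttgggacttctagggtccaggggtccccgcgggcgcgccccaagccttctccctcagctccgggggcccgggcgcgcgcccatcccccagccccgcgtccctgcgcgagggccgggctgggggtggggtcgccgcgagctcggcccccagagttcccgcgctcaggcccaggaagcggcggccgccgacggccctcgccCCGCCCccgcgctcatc
Its pseudogene NUP210P1, whose probes could share signal with it, did not pass (−0.28 ± 0.14, adjusted p = 0.184). NUP210L, a testis-enriched relative, differed by 0.03 with an interval of −0.28 to 0.34, and NUP62CL by −0.08 (−0.31 to 0.14). Both lay at or near background, where a change would be compressed.

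**Figure D2:**
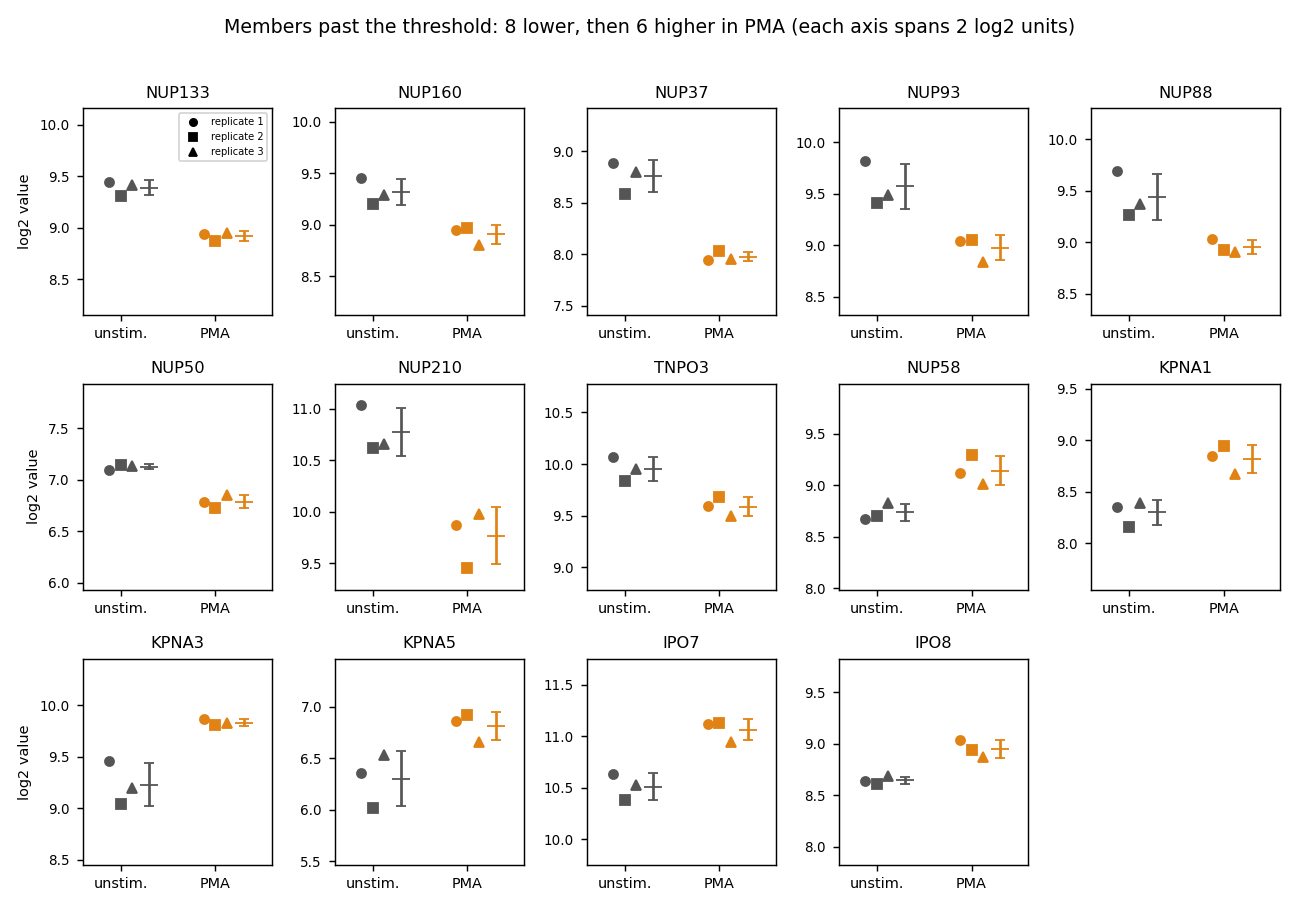
Log2 value on each array (points, shaped by replicate number) for the 14 genes past the threshold, with the group mean and its SD (n = 3) beside them; every panel spans 2 log2 units. The groups do not overlap in any of the 14 panels, which calling genes from these same values makes likely (41.2% of all genes did not overlap). The widest gap is in NUP210, at 10.62 or above without PMA and 9.98 or below with it.

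Importin alpha adaptors were the group with the most rises. Of 7 measured, 3 rose and none fell. KPNA3, one of the adaptors known to carry NF-kappaB, was at 9.46, 9.04 and 9.20 on unstimulated arrays and 9.87, 9.80 and 9.83 with PMA. The PMA arrays were nearly level with each other, and the rise was 0.60 ± 0.12 (adjusted p = 0.00799), or 1.52-fold. KPNA4, its closest relative, was at 8.96, 8.46 and 8.81 against 9.06, 9.08 and 9.14. The groups did not overlap, but the spread of the unstimulated arrays was wide and the difference of 0.35 ± 0.14 did not pass (adjusted p = 0.102). Without unstimulated array 1 it passed at 0.46 (adjusted p = 0.0372), as it did with cyclic loess and with array quality weights.

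KPNA1, KPNA5 and KPNA6 form another subfamily of the adaptors. KPNA1 went from 8.36, 8.16 and 8.39 to 8.84, 8.94 and 8.67, with every PMA array higher and a rise of 0.52 ± 0.11 (adjusted p = 0.0107). KPNA5 went from 6.36, 6.02 and 6.53 to 6.87, 6.92 and 6.65. It rose by 0.51 ± 0.15 (adjusted p = 0.0377), a call lost without unstimulated array 1 or 2 or PMA array 1 or 2 (adjusted p 0.0594 to 0.121) and with a replicate block (adjusted p = 0.0665) and with every probe set tested (0.0556). KPNA6 overlapped between groups and differed by 0.18 ± 0.11 (adjusted p = 0.297).

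KPNA2, the adaptor best known from dividing cells, was at 11.82, 11.48 and 11.59 against 11.41, 11.44 and 11.48. The groups nearly touched and the difference of −0.19 ± 0.11 did not pass (adjusted p = 0.271), with an interval of −0.44 to 0.07 that leaves out a rise of the size seen in KPNA3. Its other probe set read 11.50, 11.17 and 11.28 against 11.09, 11.12 and 11.16. KPNA7, an adaptor of the early embryo, was dim and differed by −0.11 (−0.36 to 0.14).

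**Figure D3:**
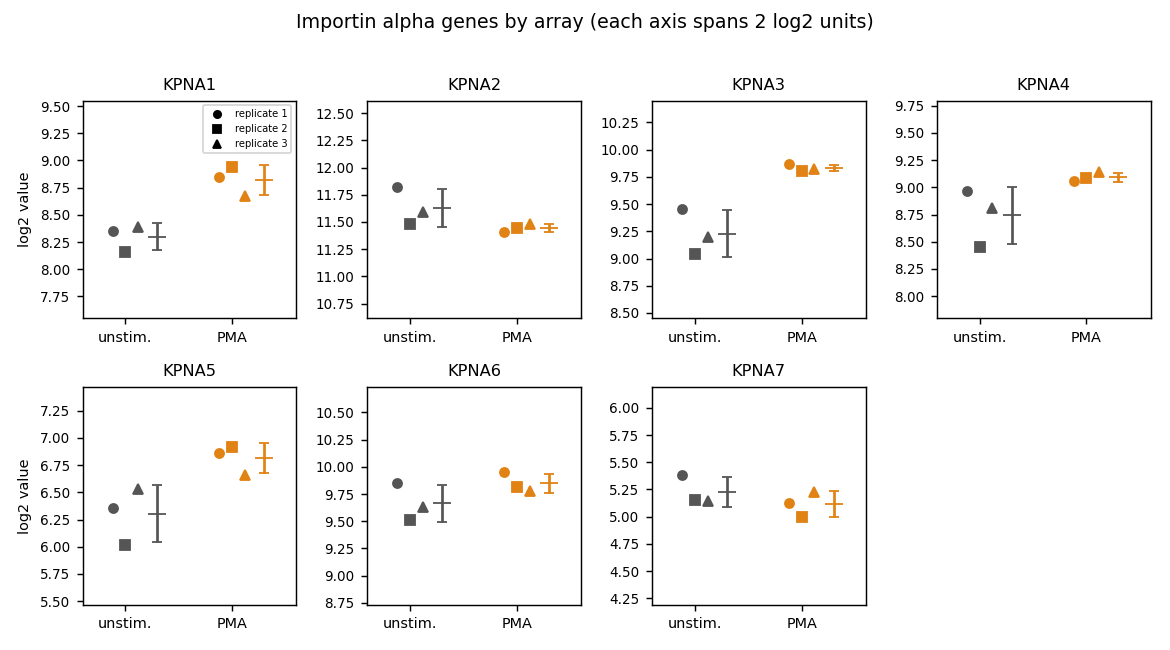
Log2 value of the 7 importin alpha genes on each array (points, shaped by replicate number), with group mean and SD (n = 3); every panel spans 2 log2 units. KPNA1, KPNA3 and KPNA5 are higher on all 3 PMA arrays and past the threshold, while KPNA2 lies slightly lower (−0.19) and not past it.

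Among importin beta, its relatives and the transportins, 2 of 11 rose and 1 fell. IPO7, an importer of ribosomal proteins and linker histone, was at 10.63, 10.38 and 10.52 on unstimulated arrays and 11.12, 11.13 and 10.95 with PMA. It was higher on every PMA array, by 0.55 ± 0.10 (adjusted p = 0.00654). IPO8, its closest relative, was at 8.63, 8.61 and 8.68 against 9.04, 8.94 and 8.87, a rise of 0.31 ± 0.09 (adjusted p = 0.0375). The IPO8 call was lost without any unstimulated array and without PMA array 1 or 2 (adjusted p 0.0656 to 0.136), with a replicate block (adjusted p = 0.0748), with trend and robust variance (0.0560) and with every probe set tested (0.0508). TNPO3, the transportin of SR splicing factors, was at 10.07, 9.84 and 9.95 against 9.59, 9.68 and 9.49. It was the sole receptor to fall, by 0.37 ± 0.10 (adjusted p = 0.0321). That call was lost without unstimulated array 1 or 3 or PMA array 1 or 3 (adjusted p 0.0726 to 0.0950), with a replicate block (adjusted p = 0.0606), without unstimulated array 1 and PMA array 3 together (0.107) and with arrays centred on their medians (adjusted p = 0.110).

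IPO13, a receptor that works in both directions, was at 8.12, 7.38 and 7.25 on unstimulated arrays and 8.37, 8.14 and 7.999 with PMA. Unstimulated array 1 reached into the PMA range, and the difference of 0.59 ± 0.22 did not pass (adjusted p = 0.0963). Without that array it passed at 0.85 (adjusted p = 0.00410), and it also passed with a replicate block (adjusted p = 0.0235). IPO4, an importer of histones whose groups overlapped, differed by 0.36 ± 0.25 (adjusted p = 0.348) and by 0.64 without that array (adjusted p = 0.0277).

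KPNB1, the importin beta that importin alpha binds, did not pass, with a difference of 0.11 and an interval of −0.11 to 0.33. TNPO1, which carries hnRNP proteins, differed by 0.11 (−0.15 to 0.38) and its relative TNPO2 by 0.08 (−0.35 to 0.51). IPO5 (−0.10 ± 0.10), IPO9 (−0.15 ± 0.11) and IPO11 (0.15 ± 0.16) overlapped between groups, with adjusted p-values of 0.564, 0.366 and 0.575. Without unstimulated array 1 and PMA array 3 together, IPO11 passed at 0.39 (adjusted p = 0.0324) and TNPO2 at 0.35 (adjusted p = 0.0297). That was the only 1 of 19 alternatives under which either passed. It was added after the data were seen and moves most changes upward by construction. IPO11 came to 0.29 without unstimulated array 1 and to 0.01 without unstimulated array 2.

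No exportin of 5 passed in limma, and 1 (XPO7) had an unadjusted p under 0.05. XPO1, the main exporter of proteins with leucine-rich signals, was at 10.30, 10.46 and 10.51 against 10.16, 10.24 and 10.28. Each PMA array was lower than each unstimulated array, but the difference of −0.20 ± 0.10 did not pass (adjusted p = 0.177), though it passed with array quality weights (−0.26, adjusted p = 0.0461). XPO7, a receptor with broad cargo, was at 10.51, 10.18 and 10.21 against 10.67, 10.61 and 10.53. It was higher on all PMA arrays without passing (0.30 ± 0.11, adjusted p = 0.0911), and it passed without unstimulated array 1 (0.40, adjusted p = 0.0207), with cyclic loess and with array quality weights. XPO5, the exporter of microRNA precursors, differed by 0.08 (−0.25 to 0.40), XPO6, the actin exporter, by 0.07 (−0.25 to 0.39) and XPO4 by −0.08 (−0.36 to 0.19).

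**Figure D4:**
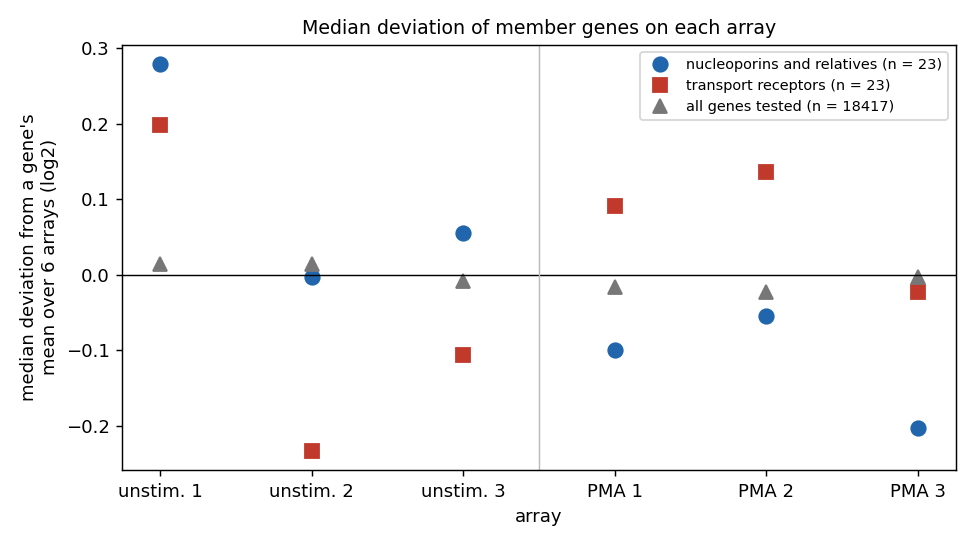
For each array, the median over genes of the deviation from the gene's own mean over the 6 arrays (log2), for 23 nucleoporins and relatives, 23 transport receptors and all 18417 genes. Unstimulated array 1 is high for both member groups (0.28 and 0.20); on the PMA arrays nucleoporins lie below 0 (−0.05 to −0.20), receptors lie at −0.02 to 0.14, and all genes stay near 0 throughout.

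The plot of median deviations sets these groups side by side on each array. On unstimulated arrays 1, 2 and 3 the median nucleoporin lay at 0.28, −0.00 and 0.06 from its own mean, and on PMA arrays 1, 2 and 3 at −0.10, −0.05 and −0.20. The median receptor lay at 0.20, −0.23 and −0.11 without PMA and at 0.09, 0.14 and −0.02 with it. For receptors, unstimulated array 1 was thus above every PMA array and the other unstimulated arrays below every one.

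The rises KPNA3 and IPO7 are shown with the 250 bases before their start because both hold an E-box (CACGTG, in capitals), the site bound by MYC and its partners. KPNA3 is on the minus strand (GRCh38.p14, chr13:49792683-49792932), with the E-box 66 bases before the start. IPO7 is on the plus strand (chr11:9384402-9384651), with the E-box 138 bases before it.
KPNA3: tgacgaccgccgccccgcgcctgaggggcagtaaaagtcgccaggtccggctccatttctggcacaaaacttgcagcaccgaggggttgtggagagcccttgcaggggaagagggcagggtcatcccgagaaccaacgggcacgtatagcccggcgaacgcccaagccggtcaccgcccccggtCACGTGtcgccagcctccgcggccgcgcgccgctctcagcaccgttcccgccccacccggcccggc
IPO7: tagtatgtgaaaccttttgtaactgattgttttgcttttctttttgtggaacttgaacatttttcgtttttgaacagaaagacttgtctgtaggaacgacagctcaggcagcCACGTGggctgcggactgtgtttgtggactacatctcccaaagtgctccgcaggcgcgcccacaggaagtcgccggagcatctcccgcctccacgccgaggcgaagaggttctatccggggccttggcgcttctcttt
Of 39 genes with a RefSeq window (250 bases before to 50 after a start), 7 held an E-box on either strand (17.9%), against 10.9% of 14239 tested genes with a window and 7.26% of all 35116 windows. By call, these were 2 of the 5 rises with a window, 1 of the 8 falls (NUP50) and 4 of the 26 not past.

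An ETS core (CCGGAAG on either strand) was held by 12 of the 39 genes (30.8%), against 16.8% of tested genes and 10.3% of all windows. ETS factors include many that act at housekeeping promoters. Among falls it was in 5 of 8, among rises in 1 of 5 (NUP58), and among genes not past in 6 of 26. The matches are set out with 10 bases on either side, read on the strand that spells the core, to let the flanks be compared (GRCh38.p14).
NUP160 (chr11:47848368-47848394): cgccccacccCCGGAAGtgacggcgac
NUP37 (chr12:102120112-102120138): gccctccgacCCGGAAGcagagccaca
NUP50 (chr22:45163907-45163933): ggtgctactgCCGGAAGcgccggcgcg
NUP88 (chr17:5419745-5419771): agcagacggcCCGGAAGctcgagaggc
TNPO3, near match (chr7:129055109-129055135): tttacccggaCCGGAAGcgacagcacc
TNPO3, far match (chr7:129055207-129055233): ccgccccctcCCGGAAGtaaccctgcc
NUP58 (chr13:25301549-25301575): acgtagcccgCCGGAAGtgtaaccgtc
Distances are given to the leftmost base of the core in the gene's own direction. In NUP50, NUP37, NUP160 and the near match of TNPO3 that base lies 8, 14, 34 and 14 bases before the start. In NUP58 it lies 66 before it, in NUP88 99 and in the far match of TNPO3 112. The NUP58, NUP88 and TNPO3 cores are on the strand opposite to the gene, so there it is the final base of the core as printed. The base after the core is t in NUP160, NUP58 and the far match of TNPO3 and c in the others. The CCAAT box was in 21 of the 39 (53.8%, against 42.2% of tested genes and 34.6% of windows), in 3 of 8 falls and 0 of 5 rises. The GC box was in 22 (56.4%, against 65.9% and 45.0%), in 7 of 8 falls and 2 of 5 rises. The E-box and ETS core were singled out after the counts were seen. A match describes letters only, the same bases can count under more than 1 motif, and none of these shares was tested. The backgrounds are not matched for brightness: 41 of the 46 genes lay above every array's median on every array, against 9718 of all 18417. No motif share, that of the E-box included, was taken over genes of like brightness.

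Companion genes of the pore and of the Ran cycle that the naming rule leaves out gave a mixed picture too. Of 33 listed, 26 were measured, and 3 rose and 2 fell (19.2%, against 26.4% of all genes). NXT2, a cofactor of the mRNA exporter, was at 8.95, 8.92 and 9.04 on unstimulated arrays and 8.02, 8.06 and 8.01 with PMA, a fall of 0.94 ± 0.08 (adjusted p = 0.00019) with all arrays close to their group mean. AAAS, the nucleoporin ALADIN, was at 9.12, 8.56 and 8.69 against 8.12, 8.13 and 7.78, with no overlap, and fell by 0.78 ± 0.17 (adjusted p = 0.0111). RANBP2, the SUMO ligase of the cytoplasmic filaments, went from 8.39, 8.13 and 8.35 to 8.88, 9.06 and 9.15, a rise of 0.74 ± 0.11 (adjusted p = 0.00254), although near-identical RGPD copies could share its signal. MCM3AP, the scaffold of the mRNA export complex at the basket, rose by 0.63 ± 0.10 (adjusted p = 0.00232). TOR1A, an ATPase of the nuclear envelope, rose by 0.60 ± 0.18 (adjusted p = 0.0391), a call kept only without unstimulated array 1 when arrays were left out in turn (otherwise adjusted p 0.0613 to 0.123), and lost with every probe set tested (0.0584). The other 21 differed by −0.32 to 0.32 without passing.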

How the data were processed

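The authors' deposited table holds 1 log2 value per probe set (33297) and array. RMA and Partek are the tools named there, per the submitters' processing notes. Tool versions: not given in the sources used here. Running RMA makes array distributions alike and shrinks differences of dim probe sets. Names came from GEO's platform annotation: 19460 carried 1 symbol, 1754 several and 12083 none there, and gene IDs matched the GRCh38.p14 gene table for 19429. The probe set brightest by mean over 6 arrays stood for a gene. Groups came from the titles. The whole table of 18417 genes was fitted by lmFit and eBayes (limma 3.58.1, R 4.3.3) on group alone, and p-values were adjusted by Benjamini-Hochberg; the steps were tested on simulated data. The number of arrays limits the precision. Promoter windows are from RefSeq (GRCh38.p14). Any of the 46 genes could be named, with array values for those past the threshold, without overlap or with a log2 change of at least 0.5, as could companion genes past the threshold. PARPBP and the other neighbours were named after their values were seen. Genes, lists and tests were chosen with earlier results of these data known. Figures were drawn with matplotlib 3.10.9.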

Additional observations from a re-analysis of the deposited data

How the results depend on the processing

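As reported, 14 genes passed, 6 higher and 8 lower. Of the 14, NUP37 and NUP210 passed under all 19 alternatives, and 7 (with NUP133, NUP93, KPNA1, KPNA3 and IPO7) passed whichever array was left out. Leaving out an array gave 7 to 15 genes, 3 to 8 higher and 4 to 7 lower, and 4 to 6 companion genes, 2 to 4 higher and 2 to 3 lower. Of all genes, 18% to 27.4% were called in those fits, against 26.4% with every array in. An adjusted p of 0.01 left 5 genes (2 higher, 3 lower) and 3 companion genes (1 lower), and treat against a 1.2-fold change 2 (0 higher, 2 lower) and 3 (1 lower). Of all genes, those settings called 15.3% and 13.3%. Arrays centred on their medians gave 4 lower. Array quality weights gave 11 higher, with 8 companion genes (5 higher). Leaving out unstimulated array 1 and PMA array 3 together, added after the data were seen, gave 14 higher, with 8 companion genes (6 higher). Most of the 46 genes lay high on the first of these arrays and low on the second. That fit thus moves most changes upward by construction. Calls were more common over all genes too, at 33.9% with the weights and 34.3% without those arrays. Repeated quantile normalization gave 4 companion genes lower and cyclic loess 5 higher. Centred arrays, these normalizations and a replicate block called 25.6% to 26.7% of all genes. With group means removed, correlations between arrays of the same replicate number were 0.18, −0.02 and 0.05. Those between different numbers ran from −0.15 to 0.11. With 3 arrays per group, these values cannot decide whether a number marks a shared culture. With a replicate block 4 genes were higher and 7 lower: NUP58, KPNA5, IPO8 and TNPO3 lost their call and IPO13 gained one. No gene past the threshold reversed. Genes near 0 did. Leaving out an array in turn gave −0.0068 to 0.130 for NUP43, −0.184 to 0.0083 for NUP155, −0.0586 to 0.165 for NUP210L, −0.0467 to 0.311 for TNPO2, −0.175 to 0.0293 for XPO4, −0.0098 to 0.219 for XPO5 and −0.0342 to 0.215 for XPO6. Without unstimulated array 1 and PMA array 3, NUP155 came to 0.0703, NUP42 to 0.0282 and XPO4 to 0.0323. With centred arrays, NUP62CL came to 0.0035 and XPO4 to 0.0021. The causes were not tested. Signal near background limits NUP210L, NUP62CL and KPNA7.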
